A study of Mus musculus with 17 samples.

Results

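The promoter regions of long noncoding RNA (lncRNA) genes in mouse kidney chromatin numbered 832, out of 52405 accessible regions found in at least 2 of 17 mice by ATAC-seq, which cuts open DNA with the Tn5 transposase and sequences the fragments. A region was built from peak summits, the positions of highest signal that the authors' peak caller reported for each mouse. The 29702 highest-scoring summits of each mouse were widened by 250 bp in both directions and merged over all mice. A region was kept when its midpoint lay within 1 kb of a transcription start site (TSS) of a gene typed lincRNA or antisense in GENCODE release M21 on mm10, and over 1 kb from every protein-coding TSS. Of the other regions, 14829 lay within 1 kb of a protein-coding TSS and 36744 were neither.

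Kidney cells of individual mice were profiled in 3 groups, with 20000 cells per library, after 6 weeks of saline or drug that began at the age of 8 weeks. Ctrl mice (n = 5) were wild-type C57BL/6 males given saline. Case mice (n = 6) were male db/db mice on the BKS background (BKS.Cg-Dock7m +/+ Leprdb/J), which lack a functional leptin receptor and become obese and diabetic, and received saline. Dapa mice (n = 6) were db/db mice of the same strain treated by gavage with dapagliflozin, which blocks glucose reabsorption by SGLT2 in the kidney, at a daily dose of 1 mg/kg. Genotype, diabetes and strain differed together between Ctrl and both db/db groups, so their parts cannot be told apart, and reads of both strains were aligned to the C57BL/6 reference. The labels name no batch. The comparisons asked which promoters differed in diabetic kidney and which differed with the drug. In such bulk samples, fewer cells of a type and less open chromatin per cell cannot be told apart.

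LncRNAs are transcripts that resemble messenger RNAs in being capped and spliced but are not translated into protein. Some act in the nucleus on chromatin or splicing, some host small RNAs in their introns or exons, and others are transcribed antisense to a coding gene or from the opposite side of a shared promoter. Their promoters are often active in fewer tissues than those of coding genes, and an accessible promoter shows that DNA was open there, not that the RNA was made.

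The labelled tissue was checked on summits within 1 kb of the TSS of marker genes. Lrp2 and Aqp1 of the proximal tubule, Slc12a3 of the distal convoluted tubule and Pax8, Cdh16 and Kl of renal epithelium had one in 17 of 17 mice. Slc12a1 and Aqp2, which mark the thick ascending limb and the collecting duct, had none in any mouse. Of 6 leukocyte markers, Ptprc, Cd79a and Itgam had none and Cd3e, Csf1r and Lyz2 had one in 1 mouse each. Of 6 genes of other tissues, Alb, Myh6 and Neurod1 had none, Gfap had one in 3 mice, Ins2 in 4 and Ckm, the muscle creatine kinase, in 16. The deposited lists held between 29702 and 56659 summits per mouse, with means of 45444.2 in Ctrl, 37299.2 in Case and 40574.5 in Dapa. Where every deposited summit is admitted below, more are therefore added on average in Ctrl mice than in db/db mice, and none in Case 4. The 5 shortest, all below the other 12 lists, were those of Case 2, Case 3 and Case 4 and of Dapa 9 and Dapa 10, with at most 33482 summits against at least 37402 elsewhere. Case 3 and Dapa 8 stood apart in another measure, the median rank of the regions that were open in all 17 mice and were not promoters. The remaining Case mice had medians of 5018 to 5687 and Case 3 had 8921, while the remaining Dapa mice had 5068 to 5315 and Dapa 8 had 6891. Sequencing depth was not given with these lists and is unknown.

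Summit sequences from 10 promoter regions are shown because the results turn on these regions. Each is 151 bases of mm10 (GRCm38) centred on the best-ranked summit of its region, written 5′ to 3′ on the strand of the lncRNA, and capitals mark CpG dinucleotides. Only the sequences of Snhg6 and Gm20939 contain the assigned TSS, and the others lie upstream or downstream of it. The first 4 were open in all 17 mice, and the CpG-dense sequence of Snhg6 stands beside the CpG-poor sequences of Kcnq1ot1 and Hnf4aos.
Gm26901 (chr1:7397976-7398126, minus strand): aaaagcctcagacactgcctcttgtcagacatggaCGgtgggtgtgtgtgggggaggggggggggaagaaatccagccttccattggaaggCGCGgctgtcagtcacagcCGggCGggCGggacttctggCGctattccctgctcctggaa
Snhg6 (chr1:9944082-9944232, minus strand): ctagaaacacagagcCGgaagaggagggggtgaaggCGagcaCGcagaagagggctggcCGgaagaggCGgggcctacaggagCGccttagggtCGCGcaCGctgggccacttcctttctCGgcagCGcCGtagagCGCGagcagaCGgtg
Kcnq1ot1 (chr7:143296578-143296728, minus strand): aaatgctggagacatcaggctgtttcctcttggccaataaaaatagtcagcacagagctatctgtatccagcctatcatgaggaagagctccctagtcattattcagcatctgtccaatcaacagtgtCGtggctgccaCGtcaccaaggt
Hnf4aos (chr2:163540876-163541026, minus strand): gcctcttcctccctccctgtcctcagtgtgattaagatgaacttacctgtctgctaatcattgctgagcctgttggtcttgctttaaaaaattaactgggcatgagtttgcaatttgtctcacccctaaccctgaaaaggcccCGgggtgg
The next 4 had a summit in some groups of mice and not in others.
2810407A14Rik (chr16:87783689-87783839, plus strand): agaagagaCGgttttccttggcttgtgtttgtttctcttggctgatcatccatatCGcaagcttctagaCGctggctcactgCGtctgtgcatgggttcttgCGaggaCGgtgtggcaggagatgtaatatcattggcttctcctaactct
Mir155hg (chr16:84703252-84703402, plus strand): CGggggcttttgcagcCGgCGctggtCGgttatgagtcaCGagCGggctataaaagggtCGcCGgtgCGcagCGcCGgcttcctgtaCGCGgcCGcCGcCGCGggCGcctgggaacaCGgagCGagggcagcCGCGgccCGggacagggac
Gm47564 (chr9:14204199-14204349, plus strand): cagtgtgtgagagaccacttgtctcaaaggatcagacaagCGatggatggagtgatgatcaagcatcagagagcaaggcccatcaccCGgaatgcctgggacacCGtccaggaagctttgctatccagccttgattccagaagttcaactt
Gm13067 (chr4:150048131-150048281, plus strand): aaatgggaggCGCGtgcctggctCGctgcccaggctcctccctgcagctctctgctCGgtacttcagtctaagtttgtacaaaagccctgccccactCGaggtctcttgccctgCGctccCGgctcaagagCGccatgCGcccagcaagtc
The last 2 had a summit in every mouse but differed in its score between groups.
Gm20939 (chr17:94864773-94864923, plus strand): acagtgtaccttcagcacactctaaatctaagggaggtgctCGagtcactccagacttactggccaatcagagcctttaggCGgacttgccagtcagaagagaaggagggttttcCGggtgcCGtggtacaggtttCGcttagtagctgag
Rab10os (chr12:3235270-3235420, plus strand): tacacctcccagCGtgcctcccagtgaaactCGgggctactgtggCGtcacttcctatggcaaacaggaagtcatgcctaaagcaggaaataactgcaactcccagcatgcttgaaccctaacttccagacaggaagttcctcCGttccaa
The number of CpG dinucleotides in these 151 bases was 15 for Snhg6 and 23 for Mir155hg, against 2 for Kcnq1ot1, 1 for Hnf4aos and 3 for Gm47564. Gm26901 had 7, 2810407A14Rik 6, Gm13067 9, Gm20939 5 and Rab10os 4.

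The 832 regions belonged to 763 of 8813 annotated lincRNA and antisense genes. By type, 585 regions were assigned to lincRNA genes and 247 to antisense genes. Most genes had a single region (700 genes), and 63 had 2 or 3. The regions lay on the autosomes (824) and on X (8), with none on Y. Their midpoints lay a median of 224.5 bp from the assigned TSS, 480 upstream of it, 351 downstream and 1 on it. The nearest protein-coding TSS was a median of 20776 bp away, and for 172 regions it lay within 5000 bp. By position, 593 regions had an intergenic TSS, 149 a TSS inside a coding gene on the other strand, 85 a TSS within 5 kb of a coding TSS pointing the other way (divergent), and 5 a TSS inside a coding gene on the same strand. A further 986 regions within 1 kb of both a lncRNA TSS and a coding TSS were left to the coding promoters. Near the 1 kb limit, the 42 regions in the last 100 bp inside it had a median of 6 mice with a summit, and the 62 regions in the first 100 bp outside it had a median of 5.

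LncRNA promoters had a summit within the list limit in fewer mice than coding promoters, and open is used here in that sense. Their summits also lay nearer the limit, with a median mean rank of 18033 against 12634 for coding promoters. How far this accounts for the difference was not tested. The median lncRNA promoter had a summit in 7 of 17 mice, against 15 for coding promoters and 4 for the other regions. In all 17 mice a summit was present at 106 lncRNA promoters (12.7%), against 40.2% of coding promoters and 4.90% of the rest. At the other end, 333 lncRNA promoters (40.0%) were found in 2 to 5 mice, and 144 of these in 2 mice, the fewest the rule allowed.

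**Figure D1:**
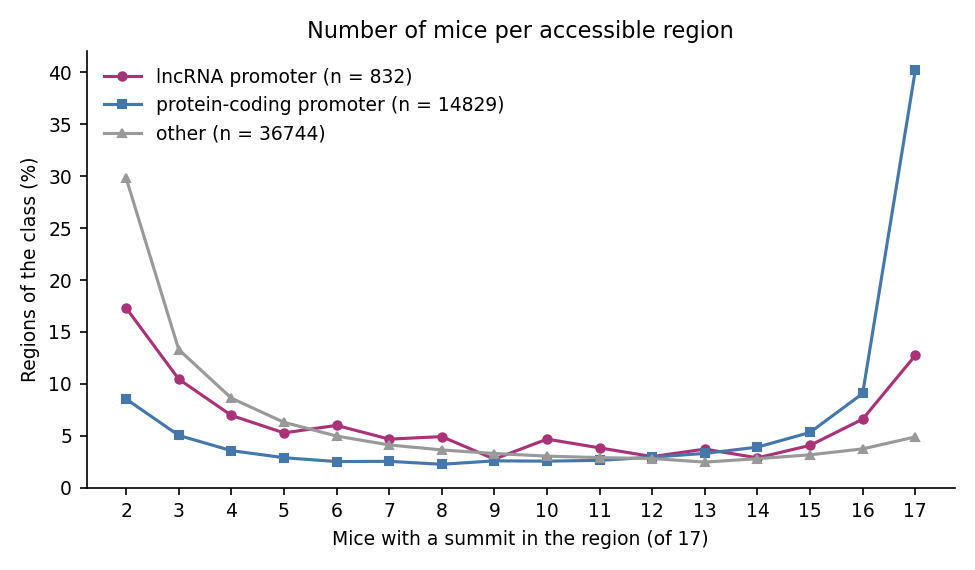
Percentage of regions of each class (vertical axis) by the number of mice, of 17, that had a summit in the region (horizontal axis). Coding promoters peak at 17 mice (40.2%), while lncRNA promoters have 17.3% of their regions at 2 mice and 12.7% at 17.

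Base composition differed between the constant and the variable lncRNA promoters, with overlap. A window of 250 bp to each side of the midpoint was called CpG-rich when GC content was at least 50% and the observed over expected CpG ratio at least 0.6. By this measure 163 lncRNA promoters (19.6%) were CpG-rich, against 66.3% of coding promoters and 3.90% of the other regions. Among the lncRNA promoters open in all 17 mice the share was 47.2%, and among those in 2 to 5 mice it was 10.5%. CpG-rich lncRNA promoters had a median of 13 mice with a summit and 30.7% were found in all 17, whereas the 669 others had a median of 6 mice and 8.37% in all 17. The same direction held for coding promoters, with a median of 17 mice when CpG-rich and 8 otherwise. Repeats masked in the reference covered over 50% of the window at 51 lncRNA promoters (6.13%), against 0.715% of coding promoters and 18.04% of the other regions.

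**Figure D2:**
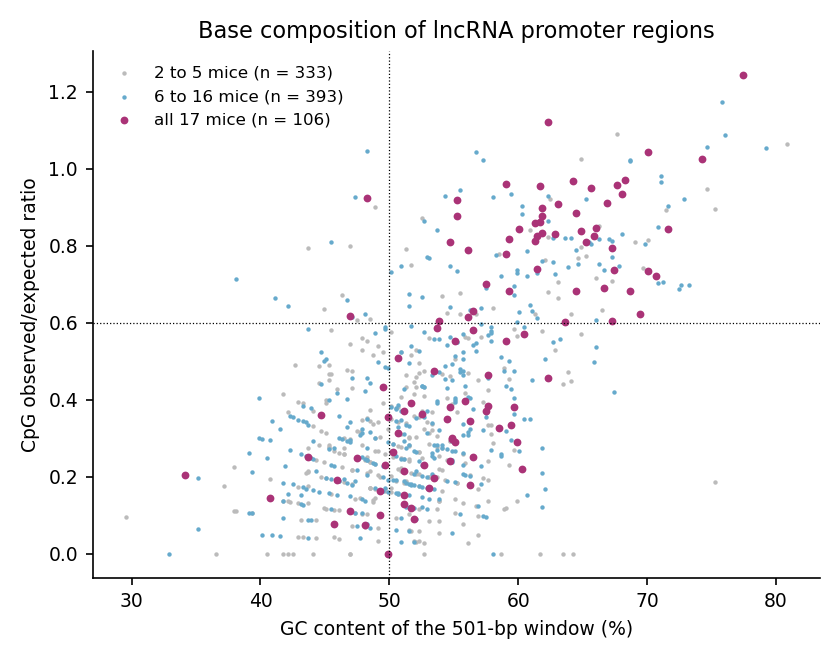
Observed over expected CpG ratio (vertical axis) against GC content in percent (horizontal axis) of the window around each lncRNA promoter, coloured by the number of mice with a summit. Dotted lines mark 50% and 0.6, and 50 of the 106 regions found in all 17 mice (large points) lie above and to the right of both.

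Short promoter motifs were counted on both strands of the same windows, as matches of letters only. The GC box GGGCGG, bound by Sp1-like factors, was present in 33.4% of lncRNA promoters, 68.3% of coding promoters, 12.98% of the other regions and 28.9% of all regions. Within lncRNA promoters it was found in 63.2% of those open in all 17 mice and in 23.7% of those in 2 to 5 mice. The ETS core CCGGAAG was present in 8.65% of lncRNA promoters, 18.7% of coding promoters and 7.82% of all regions. The TATA box TATAAA ran the other way, at 13.5% of lncRNA promoters, 8.17% of coding promoters and 15.8% of all regions. The AP-1 motif TGANTCA matched 15.3% of lncRNA promoters, 7.75% of coding promoters and 13.5% of all regions. The HNF4A motif CAAAGTCCA, of the hepatocyte nuclear factor used by proximal tubule cells, matched 1.92% of lncRNA promoters, 1.16% of coding promoters and 2.39% of all regions. For each of these 5 motifs the share in lncRNA promoters was nearer to that of all regions than to that of coding promoters.

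The 8 lncRNA promoters with the best mean rank, among the 106 open in all 17 mice, were those of Gm15564, Gm5165, Gm10010, Gm26901, Gm6712, Gm6410, 1700096K18Rik and 4632415L05Rik. A rank counts summits within a mouse from the highest score downward, so rank 1 is the highest of 29702. Gm15564, divergent from the nuclear import gene Kpna1, had a mean rank of 49.2 and stayed between rank 37 and rank 68 in every mouse. Gm5165 and Gm6712 lie on chromosome 17 at 17234518 to 17235072 and 17294038 to 17294604, and their mean ranks were 234.2 and 750.5. Gm5165 had rank 816 in Case 3 (114 to 196 in the rest of the group) and rank 1141 in Dapa 8 (105 to 204), and Gm6712 had rank 3059 in Case 3 (249 to 1121). Gm10010, 57141 bp from Tspan9, had a mean rank of 522.2 (161 to 1446) and Gm26901 one of 559.4 (132 to 1482). Over all 832 regions the median of the mean rank was 18033, against 12634 for coding promoters.

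Among lncRNAs of known function, lists of 6 kinds were followed. Of 12 nuclear and architectural lncRNAs, 8 were typed lincRNA or antisense in this annotation and 3 had a region. Malat1, an abundant RNA of nuclear speckles, had regions in 17 mice (chr19:5803300-5803940) and in 16 (chr19:5802392-5803042). Kcnq1ot1, the imprinted antisense RNA that silences neighbours of Kcnq1, had a region in 17 mice (chr7:143296329-143296962). 2900097C17Rik had one in 1 Ctrl, 1 Case and 3 Dapa mice. Tug1 was open in 17 mice but lies within 1 kb of the coding gene Morc2a and so was not a member. Neat1, the scaffold of nuclear paraspeckles, had a region within 1 kb in 17 mice that was assigned to another lncRNA gene.

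Of 23 genes in a list of small nucleolar RNA hosts, which carry RNAs that guide modification of ribosomal RNA, 8 were so typed and 4 had a region. Snhg6 (chr1:9943848-9944426) and Epb41l4aos were open in 17 mice, Snhg12 in 16 (5 Ctrl, 5 Case and 6 Dapa) and Snhg20 in 13 (4, 3 and 6). All 4 windows were CpG-rich. The other typed genes of this list, Snhg9, Snhg10, Snhg18 and Rmrp, the RNA component of the RNase MRP complex and not a host gene, were open in 17 mice within 1 kb of a coding TSS.

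Of 26 microRNA host genes, 10 were so typed and 4 had a region. Mir17hg, host of the miR-17-92 cluster, was open in 5 mice of each group, and Carmn, host of miR-143 and miR-145, in 5 Ctrl, 5 Case and 6 Dapa mice. Lncpint, a target of p53, had 3 regions at separate starts. Its CpG-rich region (chr6:31216197-31217134) was open in all 17 mice, that at chr6:31220078-31220959 in 4 Ctrl, 2 Case and 4 Dapa mice (4 of each with every deposited summit admitted), and that at chr6:31166917-31168020 in 3, 2 and 1. Mir155hg, host of the immune microRNA miR-155 (chr16:84703077-84703758), had a summit in 4 of 5 Ctrl mice and in none of the 12 db/db mice.

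Of 14 X-inactivation and imprinted lncRNAs, 10 were so typed and 3 had a region, Kcnq1ot1 among them. Ftx, an activator of Xist, had a region at chrX:103616702-103617243 in 3 Ctrl mice and no db/db mouse, and one at chrX:103622216-103622819 in 5 Ctrl, 2 Case and 3 Dapa mice. Airn, which silences Igf2r, had one in 2, 1 and 1 mice. Xist and Tsix had none in these males.

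Of 38 lncRNAs antisense to or beside developmental and kidney regulators, 16 were so typed and 2 had a region. Hnf4aos, antisense to the proximal tubule regulator Hnf4a, was open in 17 mice (chr2:163540557-163542348). Hoxd3os1 had a summit in 3 Ctrl, 3 Case and 6 Dapa mice. Irx3os was open in 17 mice, and Lhx1os and Emx2os in 16, within 1 kb of the coding TSS of Irx3, Lhx1 and Emx2, and Hnf1aos1 had a region in 16 mice that was assigned to another lncRNA gene.

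Of 32 inflammation, stress and metabolism lncRNAs, 18 were so typed and 9 genes had a region, some shared with the lists above. Mirt2, a lipopolysaccharide-inducible RNA (chr15:76269138-76270308), and Dubr were open in 17 mice. Pvt1, the neighbour of Myc (chr15:62098683-62099259), had a summit in 4 Ctrl, 1 Case and 4 Dapa mice, and in 5, 3 and 5 with every deposited summit admitted. Mirt1 and Ptgs2os2 had one in the same 2 mice, Case 3 and Dapa 8, which stood apart above, and in no other mouse with either list. Gm26917, annotated over sequence related to ribosomal RNA, had a region in 5 Ctrl, 4 Case and 6 Dapa mice (chr17:39843062-39844821). Its other region, close by (chr17:39845175-39845713), was in Case 1 and Case 3, the 2 Case mice that lacked the first. Every mouse thus had a summit in either region.

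The share of lncRNA promoters with a summit averaged lowest in the Case mice, with ranges that overlapped and an order of the means that turned with the lists and mice used. It was 57.7%, 54.7%, 57.2%, 49.5% and 53.0% in Ctrl 1 to Ctrl 5, with a mean of 54.4% ± 3.34 (SD). The 6 Case mice ran from 35.6% in Case 3 to 57.0% in Case 5, with a mean of 45.6% ± 8.05 and a median of 45.3%. The 6 Dapa mice ran from 46.4% to 54.9%, with a mean of 50.9% ± 3.44 and a median of 51.4%. All regions together moved in the same direction, with 51.2%, 45.1% and 47.6%, and coding promoters with 76.7%, 69.7% and 71.7%. The 5 mice with the shortest lists had the 5 lowest shares of lncRNA promoters, at most 47.4% against at least 49.5% in the other 12. Without them the means were 54.4% in Ctrl, 52.4% in Case (n = 3) and 52.9% in Dapa (n = 4), so the difference between Case and Ctrl went from -8.83 to -2.06 percentage points. With lists of 50% of the length and all mice it was -2.64, and that between Dapa and Ctrl turned from -3.50 to 0.883. Without Case 2, Case 3 and Case 4 alone, the difference between Dapa and Case turned from 5.33 to -1.44.

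At CpG-rich lncRNA promoters a difference remained without those mice. Over all mice the share with a summit averaged 75.2% in the Ctrl group (SD 3.99), 63.4% in the Case group (SD 5.44) and 64.0% in the Dapa group (SD 3.17). The lowest Ctrl mouse, at 69.3%, overlapped the highest Case mouse at 70.6% and the highest Dapa mouse at 69.3%. Without the 5 mice with short lists the Case mean was 67.5% (n = 3) and the Dapa mean 65.3% (n = 4), both still below Ctrl. The lncRNA promoters that were not CpG-rich were then at 49.4% in Ctrl, 48.7% in Case and 49.9% in Dapa, within 1 SD of each other. CpG-rich coding promoters went the same way, at 87.1% in Ctrl and, without the short lists, 81.7% in Case and 82.6% in Dapa. These shares are a description of the lists, and no test was run over the members.

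**Figure D3:**
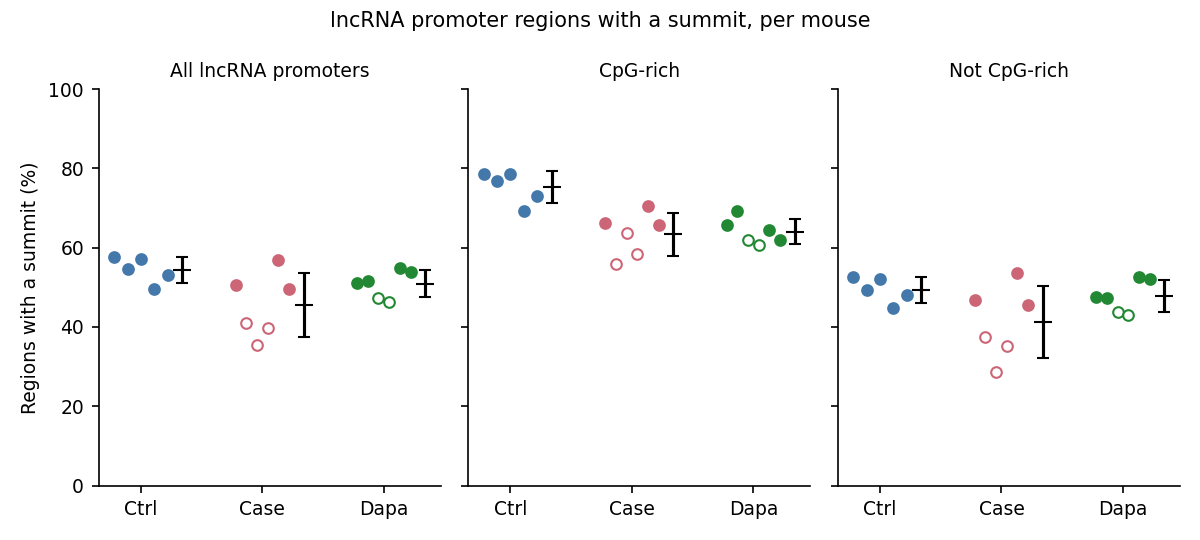
Percentage of lncRNA promoters with a summit (vertical axis) for each mouse (points) by group, for all 832 regions, the 163 CpG-rich ones and the 669 others. Bars are the group mean ± SD over all mice, and open points are the 5 mice with the shortest summit lists. In the CpG-rich panel the Ctrl mice range from 69.3% to 78.5% and the Case mice from 55.8% to 70.6%.

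Presence was then compared region by region with Fisher's exact test, 2-sided, over regions found in enough mice for an unadjusted p under 0.05 to be possible. No lncRNA promoter, and no region of any class, passed an adjusted p of 0.05 in any of the 4 comparisons. The smallest Benjamini-Hochberg adjusted p values by this test were 0.137 for Case vs Ctrl, 1 for Dapa vs Case, 0.178 for Dapa vs Ctrl and 0.0820 for both db/db groups vs Ctrl. The counts given next use the unadjusted p and describe the data. Case vs Ctrl, Dapa vs Ctrl and db/db vs Ctrl share the same 5 Ctrl mice, so their counts are not independent.

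In Case vs Ctrl, 226 lncRNA promoters could be tested. None was found more often in Case at p under 0.05 and 18 were found less often, against 0.876% and 9.38% of all regions tested. In Dapa vs Ctrl, 3 of 218 were found more often in Dapa and 18 less often, against 1.28% and 6.61% of all regions. In Dapa vs Case, 1 of 138 was found more often and 2 less often, against 0.956% and 0.249%. With any 1 mouse left out these counts ran from 1 to 6 and from 2 to 4, of 138 to 220 tested. The shares of all regions were then 0.837% to 1.8% and 0.225% to 0.622%. In db/db vs Ctrl, 9 of 493 were found more often and 41 less often, against 1.25% and 8.13%. The lncRNA promoters found less often in db/db made up 8.32% of those tested, near the background of 8.13%. Among CpG-rich lncRNA promoters 8 of 39 tested (20.5%) were found less often in Case than in Ctrl and 8 of 41 (19.5%) less often in Dapa than in Ctrl, against 10 of 187 (5.35%) and 10 of 177 (5.65%) of those not CpG-rich. In db/db vs Ctrl the gap was smaller, with 11 of 84 CpG-rich lncRNA promoters (13.1%) and 30 of 409 others (7.33%) found less often. Over regions of all classes the shares found less often were 9.30% of CpG-rich and 9.39% of other regions in Case vs Ctrl, 7.03% and 6.55% in Dapa vs Ctrl, and 8.53% and 8.07% in db/db vs Ctrl. The difference between these shares was not tested. Without Case 2, Case 3 and Case 4 the Case vs Ctrl count went from 18 to 9 of 154 tested, of which 3 were found more often and 6 less often in Case (1.95% and 3.90%, against 2.41% and 4.04% of all regions). In db/db vs Ctrl, leaving out any 1 Ctrl mouse left 0 to 3 found more often and 21 to 24 less often, against 0.403% to 0.566% and 4.86% to 7.29% of all regions. With all summits 1 was found more often and 53 less often, against 0.449% and 8.22%, but those lists are of unequal length and longest on average in Ctrl.

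Regions found less often in db/db mice were led by 2810407A14Rik, an intergenic lncRNA 84772 bp from Bach1 (chr16:87783481-87784071). It had a summit in 5 of 5 Ctrl mice, 0 of 6 Case mice and 0 of 6 Dapa mice (Fisher's exact p = 0.000162, adjusted 0.0820). Over these 5 Ctrl mice its mean rank was 21715.8 of 29702, in the last part of the list. With every deposited summit admitted it was in 5 Ctrl, 1 Case and 0 Dapa mice. Gm26583 near Nudt14 followed, with 5 Ctrl, 1 Case and 0 Dapa mice by either list (exact p = 0.000970). Gm5784 had the same counts, but 5, 2 and 3 with every summit, and its window has 4 near-identical copies elsewhere on chromosome 12. AL805899.1, a CpG-rich promoter in the interferon cluster 58373 bp from Ifne, was in 4 Ctrl mice and no db/db mouse (exact p = 0.00210), and with every summit in 5, 1 and 1. Mir155hg, at the same p, was in 4, 0 and 0, and with every summit in 4 Ctrl, 0 Case and 2 Dapa mice.

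The leading losses in Case vs Ctrl were 2810407A14Rik, Gm47564, Fbxl12os and Gm16004, each in 5 of 5 Ctrl and 0 of 6 Case mice (exact p = 0.00217, the smallest this design allows, adjusted 0.137). Gm16004, antisense to the claudin gene Cldn18, kept 5 Ctrl and 0 Case mice with every summit admitted, and was in 2 Dapa mice. Case 2, Case 3 and Case 4 had few or no further summits to admit, so such a loss is kept more easily. Fbxl12os and Gm47564 were in 2 Case mice each once every summit was admitted. In Dapa vs Ctrl, Gm46102 and 4930524O08Rik joined 2810407A14Rik, Gm26583 and Gm5784 at 5 Ctrl and 0 Dapa mice (exact p = 0.00217, adjusted 0.178). Gm46102, 344307 bp from Arhgap42, and 4930524O08Rik, 82569 bp from Rasgrf1, were each in 2 Case mice. Gm46102 kept 5, 2 and 0 with every summit, whereas 4930524O08Rik was then in 5, 2 and 2.

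Regions found more often in db/db mice were fewer. Gm13067, a CpG-rich promoter 38758 bp from Gpr157 (chr4:150047927-150049287), was in 0 Ctrl, 2 Case and 6 Dapa mice (exact p = 0.00217 for Dapa vs Ctrl). Scpep1os and 4930488L21Rik, antisense to the G protein gene Gnao1, were in 0 Ctrl and 5 Dapa mice, with 3 and 2 Case mice (exact p = 0.0152). Gm16143, divergent from Pbld1, was in 1 Ctrl, 5 Case and 5 Dapa mice (exact p = 0.0276 for db/db vs Ctrl), and Gm16025, whose window has 3 near-identical copies on chromosome 1, in 0, 4 and 4 (exact p = 0.0294). With every summit admitted Gm13067 was in 2 Ctrl, 2 Case and 6 Dapa mice, Scpep1os in 3, 4 and 5, 4930488L21Rik in 1, 2 and 5, Gm16143 in 3, 6 and 6 and Gm16025 in 4, 5 and 5. Summits below the list limit in Ctrl mice thus filled part of these gaps, and almost all of the gap at Gm16025. The full lists were longest on average in Ctrl, so gaps in Ctrl mice are filled more easily than gaps in db/db mice.

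Between Dapa and Case, 1810019N24Rik was in 5 of 6 Case and 0 of 6 Dapa mice (exact p = 0.0152, adjusted 1) and in 4 Ctrl mice, and these counts did not move when every summit was admitted. A region at another start of the same gene was in 1 Ctrl and 1 Case mouse. 2900072N19Rik was, at one of its 2 regions, in 2 Ctrl, 5 Case and 0 Dapa mice, and in 5, 5 and 2 with every summit, while its other region was in 3, 4 and 5. Gm47564, an intergenic lncRNA 70888 bp from Sesn3 (chr9:14203735-14204623), was the one promoter found more often in Dapa, in 5 Ctrl, 0 Case and 5 Dapa mice. With every summit it was in 5, 2 and 5 (exact p = 0.242 for Dapa vs Case).

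Promoters whose share of mice moved by at least 0.5 between Ctrl and Case and back by at least 0.5 in Dapa numbered 4 higher in Case (0.481% of the lncRNA promoters, 0.891% of all regions) and 12 lower in Case (1.44% and 1.33%). Higher in Case were Gm12506, 72653 bp from Klf4, and Gm35240, each in 0 Ctrl, 4 Case and 0 Dapa mice. Gm40323, 19630 bp from Scarb1, and Gm8066, which lies antisense to the erythropoietin gene Epo, were each in 0, 3 and 0. Gm35240 is wholly repeat sequence with 196 near-identical copies, so its reads cannot be placed with certainty. Lower in Case were Gm47564 (5, 0 and 5), Gm30382 (4, 0 and 4), Gm26833, divergent from Tmem178b (5, 1 and 5), and 1810063I02Rik, 26755 bp from Med9 (5, 2 and 6). Of these 8, Gm26833 kept its counts with every summit admitted. Gm8066 was then in 3 mice of every group.

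**Figure D4:**
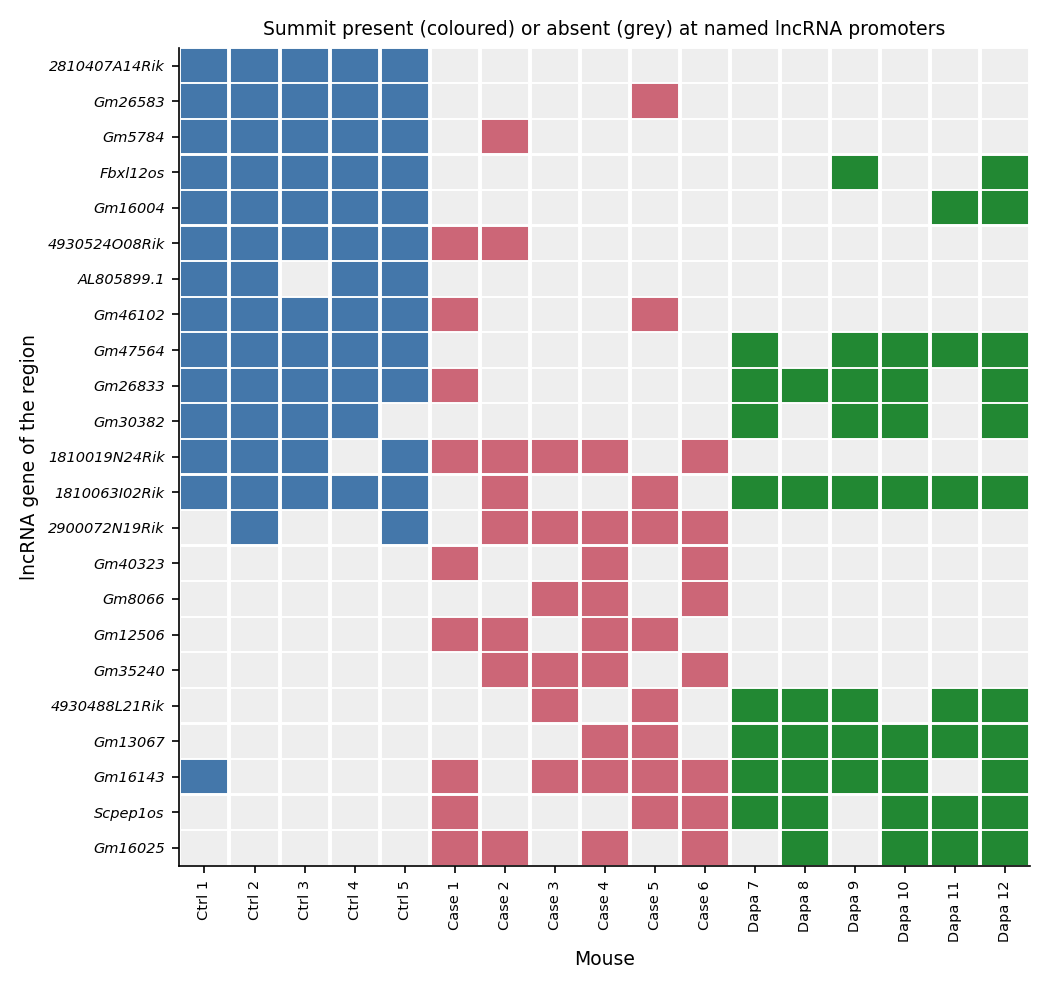
Presence of a summit (coloured) or absence (grey) in each of 17 mice (columns) at the lncRNA promoters (rows) named by Fisher's test or by the pattern of loss or gain in Case and return in Dapa. The top row is 2810407A14Rik, present in 5 of 5 Ctrl mice and 0 of 12 db/db mice, and the 4 rows coloured in Case mice alone are the promoters gained in Case and absent again in Dapa.

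By group, 533 lncRNA promoters (64.1%) had a summit in at least 1 mouse of each of the 3 groups, against 58.8% of all regions. In Ctrl alone were 26 (3.12%, against 3.86% of all regions), in Case alone 17 (2.04% against 4.31%) and in Dapa alone 19 (2.28% against 2.77%). Both db/db groups but no Ctrl mouse had 115 (13.8% against 15.2%).

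For the 106 lncRNA promoters open in every mouse, the score of the best summit could be compared between groups. Each region's rank within its mouse, over the 7864 regions of all classes open in all 17 mice, was turned into a normal score, on which 1 unit is 1 SD of the regions in a mouse, and tested with limma. In Case vs Ctrl 1 lncRNA promoter was higher and 1 lower at a Benjamini-Hochberg adjusted p under 0.05, against 1.2% and 0.534% of all regions tested. In Dapa vs Ctrl it was also 1 and 1, against 0.318% and 0.114%, and in db/db vs Ctrl 2 and 2, against 1.61% and 0.827%. These counts are small and unstable. With robust moderation the promoters called in either direction went from 2, 2 and 4 to 4, 5 and 7 (against 3.45%, 2.34% and 4.98% of all regions), and on the log2 score to 4, 4 and 6 (4.03%, 1.22% and 5.61%). Leaving out 1 mouse gave 0 to 3, 1 to 4 and 1 to 5 (0.165% to 2.02%, 0.0127% to 0.992% and 0.280% to 3.08%). Case vs Ctrl fell to 0 without Ctrl 2, 3, 4 or 5 or Case 1, and Dapa vs Ctrl rose to 4 without Dapa 8. In Dapa vs Case limma called 0 lncRNA promoters and 0 regions of any class in either direction (0% each), with 11 of the 106 (10.4%) and 474 of all 7864 (6.03%) at an unadjusted p under 0.05. The median difference over the 106 was 0.06 for Case vs Ctrl, -0.09 for Dapa vs Case and 0.06 for Dapa vs Ctrl, beside -0.00485, -0.00276 and 0.000958 over all regions.

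Gm20939, an intergenic lincRNA near the end of chromosome 17 (chr17:94864332-94865153), fell in db/db mice. Its ranks were 2175, 3141, 4113, 1381 and 2426 in Ctrl 1 to Ctrl 5. In Case mice they ran from 4139 to 19505 with a median of 10876, and in Dapa mice from 10009 to 26671 with a median of 16618. Every db/db mouse ranked it lower than every Ctrl mouse. The difference in normal score was -1.38 ± 0.33 (SE) for Case vs Ctrl (limma adjusted p = 0.0386), -2.12 ± 0.33 for Dapa vs Ctrl (adjusted p = 0.0131) and -1.75 ± 0.29 for db/db vs Ctrl (adjusted p = 0.00585). For Dapa vs Case it was -0.75 ± 0.31 (limma adjusted p = 0.781).

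A530040E14Rik, an antisense lncRNA inside the coding gene C130026I21Rik (chr1:85105332-85106387), rose. Repeats covered 34.3% of its window, and no near-identical copy of that window was found. The gene's 2 other regions, at chr1:85111334-85111892 and chr1:85111922-85112498, had 2 and 1 near-identical copies on chromosome 1. Its ranks were 6038, 15274, 11733, 19468 and 20030 in the 5 Ctrl mice, 1904 to 7083 with a median of 5096 in Case and 1430 to 6238 with a median of 5204.5 in Dapa. One Ctrl mouse, Ctrl 1, fell within the range of the db/db mice. The difference was 1.47 ± 0.33 (SE) for Case vs Ctrl (limma adjusted p = 0.0320), 1.52 ± 0.33 for Dapa vs Ctrl (adjusted p = 0.0466) and 1.49 ± 0.29 for db/db vs Ctrl (adjusted p = 0.0145). Between Dapa and Case it was 0.05 ± 0.32.

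Only the pooled db/db comparison called Gm15892 and Rab10os. Gm15892, an intergenic lncRNA 8969 bp from the transcription factor gene Vezf1 (chr11:88058983-88059638), had ranks 14863, 6640, 15138, 11777 and 11178 in Ctrl, a median of 6077 in Case (3459 to 8903) and of 3652 in Dapa (346 to 7973). Its difference was 1.204 ± 0.30 (limma adjusted p = 0.0379). Rab10os, a CpG-rich promoter on chromosome 12 (chr12:3235073-3236316), had ranks 2882, 2329, 1666, 859 and 782 in Ctrl, a median of 4566.5 in Case (2283 to 6210) and of 5715.5 in Dapa (2401 to 10932). Its difference was -0.94 ± 0.24 (limma adjusted p = 0.0466). The Ctrl range of each overlapped that of the db/db mice.

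**Figure D5:**
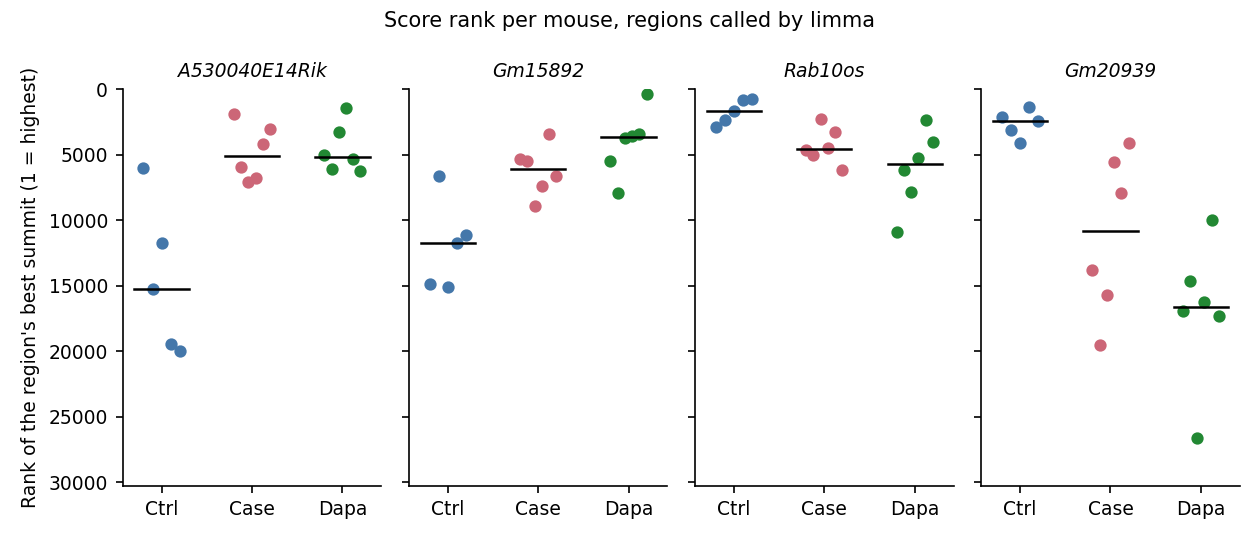
Rank of the best summit of 4 lncRNA promoters within each mouse (vertical axis, 1 is the highest score and lies at the top) by group, with the median as a line. The 5 Ctrl mice of Gm20939 lie between 1381 and 4113, above all 12 db/db mice.

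Between Dapa and Case no promoter passed, and the 2 with the smallest p in each direction are given. Kcnq1ot1, shown above with its CpG-poor summit sequence, had ranks 7562, 6200, 5307, 6202 and 3683 in Ctrl, a median of 5869 in Case (3552 to 7884) and of 12687 in Dapa (4697 to 17290). The difference between Dapa and Case was -0.87 ± 0.25 (limma adjusted p = 0.717, unadjusted 0.00253), and 5 of 6 Dapa mice ranked it below every Case mouse. Gm44066, in the Klr receptor cluster, had a difference of -0.63 ± 0.24 (limma adjusted p = 0.773). AC109138.4 near Ssh3 had one of 1.01 ± 0.36 (limma adjusted p = 0.761) and Speer4cos, whose window has 4 near-identical copies, one of 0.78 ± 0.33 (limma adjusted p = 0.781).

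The called promoters were stable to different degrees. Gm20939 kept an adjusted limma p under 0.05 for Dapa vs Ctrl and db/db vs Ctrl under every alternative that tested it. In Case vs Ctrl it lost the call without any 1 of the 5 Ctrl mice and without Case 1, Case 2 or Case 3. It also lost that call without Case 2 to Case 4 together (difference -1.12) and without Case 3 and Dapa 8 together (difference -1.28). A530040E14Rik lost the db/db vs Ctrl call in 1 alternative, without Ctrl 2 (difference 1.49), and the Case vs Ctrl call without Ctrl 2, 3, 4 or 5 or Case 1 or 6, and without Case 2 to Case 4 together (difference 1.84). Its Dapa vs Ctrl call was lost with all summits and without any 1 mouse other than Ctrl 1, Case 2 or Dapa 8, with an adjusted limma p from 0.0209 to 0.142 over the alternatives. Gm15892 and Rab10os lost theirs without any 1 of the 5 Ctrl mice (differences 1.11 to 1.41 and -1.06 to -0.84), and also without some of the db/db mice. None of these 4 promoters changed direction in any alternative that tested it. The highest rank number in any mouse was 26671 for Gm20939, 20030 for A530040E14Rik and 15138 for Gm15892. The shortened summit lists end before these ranks. With those lists these promoters were therefore not open in every mouse and could not be tested with limma. Of the 832 promoters, 66 (7.93%) had a near-identical copy elsewhere on the autosomes, X or Y, and 9 of those were among the 106 open in every mouse.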

How the data were processed

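Kidney ATAC-seq summit lists of 17 mice were analysed (Ctrl n = 5, Case n = 6, Dapa n = 6), grouped by the sample labels. The authors used the ENCODE pipeline, with Bowtie2 alignment to mm10, removal of duplicate reads and of blacklisted regions, a shift of reads for the Tn5 cut and MACS2 peak calling in each library. Each deposited summit has a MACS2 score, a −log10 value. Whether it stands for p or for q is not given in the sources used here. The score rises with sequencing depth, which is unknown, so lists of equal length and within-mouse ranks were used.

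In each mouse the 29702 best summits on the 19 autosomes, X and Y were kept, the length of the shortest list. Up to 4351 summits shared the score at the limit, and among them the kept ones were drawn in a seeded order. Windows were read from RefSeq sequence of GRCm38, and TSSs from the GENCODE M21 transcripts. Only summit positions and scores were used, so a region with no summit is not shown to be closed. Near-identical copies were windows matched by minimap2 2.31-r1302 at 95% identity or more over at least 80% of their length. They were sought on the 19 autosomes, X and Y only, so copies in mitochondrial or unplaced sequence are not counted.

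Presence was compared with a 2-sided Fisher's exact test, adjusted by Benjamini-Hochberg over all regions tested, using scipy 1.17.1 in Python 3.11.15. Scores of the 7864 regions present in every mouse were compared with limma 3.58.1 in R 4.3.3, fitted over the 3 groups and adjusted over all 7864. Both tests were also run on simulated data, in which mice were drawn independently and did not differ in list length as the real mice do. The lncRNA promoters and gene lists were chosen with earlier results of these data known. Named promoters were those of the 6 gene lists, up to 4 per direction and comparison with the smallest p, the 8 with the best mean rank, and up to 4 per direction that moved in Case and back in Dapa. Pvt1 and Mir155hg were named through the lists. Dixon's test for a mouse standing apart was run within each group on 30 values, which were 7 summaries per mouse and the ranks of the 23 named promoters open in every mouse, 90 groups of values in all. Separate mice are the replicates.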

Additional observations from a re-analysis of the deposited data

Results flagged for a closer look

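Within a group, 1 mouse stood apart from the others by Dixon's test in 12 of 90 groups of values, and chance gives about 1 in 20. The values given first are the mouse that stood apart and then the range of the others of its group.

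Case 3 and Dapa 8 account for 7 of the 12. The median rank of non-promoter regions open in all mice was 8921 in Case 3 (5018 to 5687) and 6891 in Dapa 8 (5068 to 5315), and that of coding promoters was 3717 in Dapa 8 (4398 to 4704). The Gm5165 promoter had rank 816 in Case 3 (114 to 196) and 1141 in Dapa 8 (105 to 204), and Gm6712, near it on chromosome 17, had rank 3059 in Case 3 (249 to 1121). Gm15564 had rank 68 in Dapa 8 (43 to 51).

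The other 5 lay in 5 mice. The median rank of lncRNA promoters open in all mice was 6368.5 in Ctrl 2 (5819 to 5926.5). The promoter of the small nucleolar RNA host Snhg6 had rank 22798 in Dapa 12 (4192 to 7922) and that of Dubr rank 25196 in Dapa 9 (4806 to 9951), near the end of the list. 4632415L05Rik had rank 1722 in Ctrl 5 (516 to 865) and Gm10010 rank 1214 in Case 5 (322 to 629). None of the 4 promoters called by limma had a mouse that stood apart in this way.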

How the results depend on the processing

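Lists of 50% of the length gave 468 lncRNA promoters in place of 832. The share found in all 17 mice was 9.62% with those lists, 10.3% with all summits, 9.62% with summits extended by 100 bp and 15.4% when at least 3 mice were required. With the shorter lists the Fisher counts (unadjusted p under 0.05) went to 8 of 114 for Case vs Ctrl (1 higher and 7 lower, against 1.88% and 6.68% of all regions), 0 of 75 for Dapa vs Case (0.775% and 0.274%), 11 of 117 for Dapa vs Ctrl (4 and 7, against 1.95% and 5.29%) and 21 of 283 for db/db vs Ctrl (5 and 16, against 2.29% and 6.05%). For Dapa vs Case all summits gave 1 of 173, lower, against 0.232%. With the shorter lists the mean difference in share between Case and Ctrl went from -8.83 to -2.64 percentage points, and that between Dapa and Ctrl reversed from -3.50 to 0.883. By limma on the log2 score 4 of 106 promoters (3.77%) were called for Case vs Ctrl and 4 for Dapa vs Ctrl, against 4.03% and 1.22% of all 7864 regions. Robust moderation gave 4 (3.77%), 5 (4.72%) and, for db/db vs Ctrl, 7 of the 106, against 3.45%, 2.34% and 4.98%. All summits gave 1 of 119 (0.840%) for Dapa vs Ctrl, against 0.117%.

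Alternatives added after seeing the data took ties in file order, which gave 1 of 136 for Dapa vs Case, lower, against 0.235%, or left tied summits out, which gave 0 of 133, against 0.814% higher and 0.243% lower. Without Case 2, Case 3 and Case 4 the Fisher counts were 9 of 154 for Case vs Ctrl (3 higher and 6 lower, against 2.41% and 4.04%) and 9 of 237 for Dapa vs Case (3 and 6, against 0.643% and 2.21%). The mean differences were then -2.06 and, reversed, -1.44 points, and the limma counts 0 for Case vs Ctrl and 1 for Dapa vs Ctrl (0.178% of all regions each). Without Dapa 9 and Dapa 10 as well the Fisher counts were 9, 5 of 145 for Dapa vs Case (1 and 4, against 0.805% and 1.44%) and 37 of 268 for Dapa vs Ctrl (13 and 24, against 3.8% and 8.02%), with a mean difference of -2.06 and limma counts of 0 and 1 (0.0890% and 0.0381%). Without Case 3 and Dapa 8 the Fisher count was 10 of 158 for Dapa vs Case (5 and 5, against 2.31% and 1.39%) and the limma count 1 for Case vs Ctrl (0.839%). The cause of these changes was not tested.

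Leaving out each mouse in turn, the Fisher counts in either direction ran from 18 to 35 for Case vs Ctrl (of 175 to 331 tested), 3 to 9 for Dapa vs Case (138 to 220), 21 to 34 for Dapa vs Ctrl (175 to 317) and 21 to 47 for db/db vs Ctrl (429 to 482). As shares these were 7.17% to 15.8%, 1.45% to 4.17%, 8.12% to 18.8% and 4.90% to 9.92% of the lncRNA promoters tested, against 9.02% to 19.3%, 1.21% to 2.43%, 7.32% to 15.4% and 5.30% to 10.1% of all regions. The limma counts, of 106, ran from 0 to 3, 0 to 0, 1 to 4 and 1 to 5, against 0.165% to 2.02%, 0% to 0.0127%, 0.0127% to 0.992% and 0.280% to 3.08% of all regions. The mean differences ran from -11.1 to -6.83, 3.33 to 7.60 and -4.73 to -2.60. Ctrl and Case mice share the numbers 1 to 5, but their deviations correlated by -0.0706 to 0.0568, and no pairing by number was seen. These values cannot show whether the mice were matched in handling. With the replicate block the limma counts stayed at 2, 0, 2 and 4, and 1 of 5 Ctrl mice correlated best with its own number. No paired Fisher test was run. Depth is unknown, and an absent summit can be one below the list limit.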
